A study of Mus musculus with 94 samples.

Results

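The 10 genes described here encode immune regulatory receptors of myeloid cells and one signalling adaptor: Cd200r1, Cd200r3, Cd200r4, Cd300a, Cd300lf, Fcgr2b, Fcgr3, Pilra, Siglecf and Tyrobp. They were taken as a named list from the 46078 gene identifiers of the count table, by matching identifiers to symbols, and all 10 were found. The RNA came from single bone marrow basophils of female C57BL/6 mice, whose age and genotype beyond the strain were not given in the sources used here. Live cells lacking lineage markers and Sca1 and carrying the high-affinity IgE receptor FcεRI were index-sorted from 2 gates, 47 cells with surface CD34 and 47 without. The labels name no treatment, and CD34, a surface protein of progenitor cells, was the property that separated them. The cells came from 3 mice, but no label ties a cell to its mouse. Each gate is therefore 1 sample, and no test between the gates was possible. The values below are therefore descriptions of these 2 sets of cells.

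Paired receptor families of myeloid cells hold inhibitory and activating members that often bind related ligands. Inhibitory members usually carry an immunoreceptor tyrosine-based inhibitory motif (ITIM) in their cytoplasmic tail, which recruits phosphatases such as those encoded by Ptpn6 and Inpp5d. Activating members have short tails and signal through adaptors with an activation motif (ITAM), such as Tyrobp, also called DAP12, or Fcer1g, which engage the kinase Syk. In basophils and mast cells the balance of these signals sets the threshold at which cross-linked IgE receptors release mediators.

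After removal of 2 shallow libraries, 46 cells per gate were kept. Their gene reads numbered 262944 to 938322 per cell (median 737059) in the CD34-negative gate and 374011 to 1154738 (median 633178) in the CD34-positive gate. A median of 5304 genes had a read in a CD34-negative cell and 7512 in a CD34-positive cell, and gene reads per ERCC spike-in read had medians of 6.87 and 14.4. One kept library went against its label. The library labelled CD34-negative cell 10 held 7.61 CPM (reads per 1000000 gene reads) of the IgE receptor gene Fcer1a, 7.61 CPM of Ms4a2 and 3.80 CPM of the transcription factor gene Gata2. The next lowest cells held 167, 481 and 570 CPM of these basophil genes. The same library held 3119 CPM of C1qb, 12273 CPM of Cd74 and 966 CPM of Csf1r, genes of macrophages and antigen-presenting cells, whose medians in the other 91 cells were 0. Gate values below include this library, and the value without it is given beside those it moves most. Over all kept cells, the 14 basophil markers summed to 50311 CPM (CD34-negative) and 100218 CPM (CD34-positive). The protease genes Prss34 (24143 and 62565 CPM), Mcpt8 (8049 and 21224 CPM) and Cpa3 (1938 and 4871 CPM) carried this difference, while 9 of the 14 markers had lower CPM in the CD34-positive gate. Of 9 mast cell markers, 8 were at 0 in the CD34-negative gate and 4 in the CD34-positive gate, with sums of 0.0299 and 11.4 CPM and cells from 0 to 285 CPM. The 8 eosinophil markers summed to 98.1 and 56.7 CPM, with cells from 0 to 1496 CPM. Most of it was Ccr3 in the CD34-negative gate (97.9 CPM) and Prg2 in the CD34-positive gate (48.0 CPM). The 8 neutrophil markers summed to 19.7 and 67.4 CPM, of which Lcn2 held 19.6 and 66.6 CPM, and 5 of them were at 0 in each gate. The 10 monocyte and dendritic cell markers summed to 557 (541 without cell 10) and 65.3 CPM, with cells from 0 to 2741 CPM, and Ccr2 accounted for 493 and 40.5 CPM. The 6 NK cell markers summed to 0.0299 and 0 CPM. The part of these cells or transcripts in the differences below was not tested.

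The genes lie in clusters of near copies, which matters for how short reads can be assigned. In the GENCODE M21 annotation of the mm10 (GRCm38) genome, Cd200r1, Cd200r4 and Cd200r3 lie in this order on the plus strand at chr16:44765736-44794978, chr16:44811733-44839150 and chr16:44943678-44981380. Fcgr2b at chr1:170958617-170976547 and Fcgr3 at chr1:171051174-171064935 lie near each other on the minus strand. Cd300a (chr11:114890041-114904654) and Cd300lf (chr11:115116214-115133992) share a cluster, while Siglecf (chr7:43351341-43359531), Tyrobp (chr7:30413760-30417585) and Pilra (chr5:137821952-137836281) stand elsewhere. The longest run shared by the coding sequences of Fcgr2b and Fcgr3 was 129 bases, longer than the 50 bp reads. It is shown in capitals with 12 flanking bases on each side, spliced from more than 1 exon, to show how alike an inhibitory and an activating IgG receptor are.
Fcgr2b: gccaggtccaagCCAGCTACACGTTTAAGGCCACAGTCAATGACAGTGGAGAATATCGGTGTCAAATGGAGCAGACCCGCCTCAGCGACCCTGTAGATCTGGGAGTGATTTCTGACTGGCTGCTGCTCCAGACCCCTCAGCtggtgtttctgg
Fcgr3: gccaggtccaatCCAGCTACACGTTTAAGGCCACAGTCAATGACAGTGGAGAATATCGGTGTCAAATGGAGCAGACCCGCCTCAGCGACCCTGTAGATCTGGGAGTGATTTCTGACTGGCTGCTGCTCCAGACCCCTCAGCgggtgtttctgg
Cd200r1 and Cd200r4, an inhibitory and an activating receptor, shared a coding run of 88 bases within 1 exon of each, at chr16:44789689-44789776 and chr16:44833000-44833087. The capitals again mark the shared run.
Cd200r1: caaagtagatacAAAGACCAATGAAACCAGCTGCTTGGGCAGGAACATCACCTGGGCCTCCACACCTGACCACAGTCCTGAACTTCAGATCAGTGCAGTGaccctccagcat
Cd200r4: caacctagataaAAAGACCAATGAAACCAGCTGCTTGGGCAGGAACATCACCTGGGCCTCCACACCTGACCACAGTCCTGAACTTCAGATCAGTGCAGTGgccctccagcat
Over all annotated transcripts, 9.58% of the 50-base words of Fcgr3 and 6.95% of those of Fcgr2b also occurred in another gene, with 166 words common to this pair. The share was 4.94% for Cd200r4, 3.45% for Cd300a, 2.79% for Cd200r3, 2.44% for Cd300lf, 1.16% for Cd200r1, 0.206% for Siglecf and 0% for Tyrobp. Pilra had the highest share, 20.8%, and 468 of its exon bases overlap Zcwpw1 on the other strand, so its reads are the least certain. Fcgr2b exons overlap Gm38204 on the other strand over 155 bases. How reads matching several genes were counted was not given in the sources used here. The category for multiply aligned reads held 0 reads, and 7.68% of all reads were in the ambiguous category.

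Cd200r3, an activating receptor that signals through DAP12 and is known as a surface marker of basophils and mast cells, was the most abundant of the 10 by reads in both gates. In single CD34-negative cells it ranged from 20.6 CPM through a median of 3357 to 7974 CPM, and in CD34-positive cells from 1.67 through 1165 to 3231 CPM. The gates overlapped: 44 of 46 CD34-negative cells but only 33 of 46 CD34-positive cells held over 500 CPM. Summed over the gate, Cd200r3 reached 3549 CPM in the CD34-negative gate against 1279 CPM in the CD34-positive one. That is 2.77-fold lower in the CD34-positive gate, a log2 fold of -1.47 with a counting interval of -1.49 to -1.45. Folds are log2 ratios of CPM plus 1, CD34-positive over CD34-negative, and their 95% intervals cover counting error only, not differences between mice or amplification.

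Cells low in Cd200r3 occurred in both gates. In the CD34-positive gate 8 cells were below 100 CPM, and 7 of these 8 held Mpo, a granule enzyme of early myeloid cells, at 1448 to 8238 CPM. High Mpo was common in that gate: 24 of its other 38 cells held at least 1000 CPM, against 7 of these 8. At least 100 CPM of Kit, the stem cell factor receptor gene, was held by 6 of the 8 and by 10 of the other 38. Among the 8, cell 35 held 4.40 CPM of Cd200r3 with 332 CPM of Kit, cell 6 held 4.59 with 563 CPM, and cell 41 held 7.57 with 668 CPM. The lowest cell, number 1, held no Kit read but 1448 CPM of Mpo and 1245 CPM of the proliferation gene Mki67. In the CD34-negative gate only cells 19 and 10 were below 100 CPM. Cell 19 held 20.6 CPM of Cd200r3 beside 4527 CPM of Tyrobp, the highest Tyrobp level of any cell, 1589 CPM of Cd200r1, 2373 CPM of Fcer1a and 3928 CPM of Gata2. It held little of the basophil protease genes, with 55.6 CPM of Prss34, 12.3 of Mcpt8 and 2.06 of Cpa3. Cell 10 held 118, 45.6 and 26.6 CPM of these, with 7.61 CPM of Fcer1a, 0 reads of Cd200r1, 886 CPM of Fcgr3 and 472 CPM of Cd300a.

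Cd200r4, a second activating CD200 receptor relative that uses the same adaptor, was patchy. It had reads in 31 of 46 CD34-negative and 29 of 46 CD34-positive cells. Its values ran from 0 through 9.43 to 636 CPM in CD34-negative cells and from 0 through 3.92 to 933 CPM in CD34-positive cells. The highest cell of all was CD34-positive, yet 16 CD34-negative and only 7 CD34-positive cells held over 100 CPM. Summed levels were 125 and 57.6 CPM, a log2 fold of -1.10 (-1.22 to -0.99). CD34-positive cell 23 alone held 36% of that gate's Cd200r4 reads, and without it the log2 fold was -1.70. Without CD34-negative cell 26 it was -0.94.

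The promoters of Cd200r3 and Cd200r4 are shown because these genes of the same cluster had the highest correlation across CD34-negative cells. They were the only promoters compared for shared runs. RefSeq promoters (GRCm38.p6) matched 8 of the 10 genes, and the 250 bases before the RefSeq start are printed, both on the plus strand, for Cd200r3 at chr16:44943428-44943677 and for Cd200r4 at chr16:44820478-44820727. This RefSeq start of Cd200r4 lies inside the GENCODE gene, whose first transcript begins further upstream. Capitals mark runs of at least 12 bases that both sequences hold.
Cd200r3: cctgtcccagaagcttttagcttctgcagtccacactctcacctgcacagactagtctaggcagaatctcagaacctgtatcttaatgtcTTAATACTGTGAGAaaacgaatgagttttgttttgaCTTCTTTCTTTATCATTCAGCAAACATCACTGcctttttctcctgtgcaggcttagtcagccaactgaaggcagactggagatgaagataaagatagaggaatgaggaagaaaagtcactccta
Cd200r4: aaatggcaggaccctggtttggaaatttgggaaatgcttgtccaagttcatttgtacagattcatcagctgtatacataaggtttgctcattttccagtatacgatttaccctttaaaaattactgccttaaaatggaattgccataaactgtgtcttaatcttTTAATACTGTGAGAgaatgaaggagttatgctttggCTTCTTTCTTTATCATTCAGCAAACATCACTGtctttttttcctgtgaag
The shared runs covered 46 of the 250 bases (18.4%). The longest, of 32 bases, began 124 bases before the Cd200r3 start and 50 bases before the Cd200r4 start. On either strand, the CEBP motif TTGCNNAA matched once in each of the 2 promoters, inside this longest run, and matched 9.56% of all 32851 RefSeq promoters. The GATA motif AGATAA matched Cd200r3 but not Cd200r4, and 9.99% of all promoters. The PU.1 motif GAGGAA matched Cd200r3 at 2 places, did not match Cd200r4, and matched 23.3% of all promoters. A match describes letters only.

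Fcgr3, the activating low-affinity IgG receptor that signals with Fcer1g, had reads in all 92 cells. It ranged from 1.18 through 806 to 2429 CPM in CD34-negative cells and from 15 through 571 to 2245 CPM in CD34-positive cells. The ranges overlapped almost wholly. The lowest CD34-negative cell, number 21, stood apart with 1.18 CPM beside 1320 CPM of Fcer1a and 2277 CPM of Tyrobp. Summed levels were 993 and 696 CPM, a log2 fold of -0.51 (-0.55 to -0.48).

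Tyrobp, the ITAM adaptor used by the activating CD200 receptors, was detected in every cell. Values ran from 507 through 2134 to 4527 CPM in CD34-negative cells and from 5.39 through 1126 to 2814 CPM in CD34-positive cells. Below 1000 CPM lay 2 CD34-negative and 20 CD34-positive cells. The lowest, CD34-positive cell 40, also held only 17.5 CPM of Cd200r3, with 268 CPM of Kit. Summed levels were 2162 and 1176 CPM, a log2 fold of -0.88 (-0.90 to -0.85). Per kilobase of annotated exon, Tyrobp was the highest of the 10 in both gates, at 3241 and 1763 CPM per kb, ahead of Cd200r3 (593 and 214) and Fcgr3 (572 and 401). In the CD34-negative gate those last 2 levels were close, and in the CD34-positive gate Fcgr3 stood above Cd200r3. The ratio of Tyrobp to Fcer1g, the other main ITAM adaptor, was 2.66 per kilobase without CD34 and 1.57 with it. Fcer1g itself had 1066 and 980 CPM, giving a log2 fold of -0.12 (-0.15 to -0.09), or 0.84 under ERCC scaling.

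Among the inhibitory receptors, Cd200r1, which binds CD200 and signals through Dok proteins rather than a classical ITIM, had the highest level per kilobase, at 102 CPM per kb (CD34-negative) and 56.8 CPM per kb (CD34-positive). Single cells ran from 0 through 270 to 1589 CPM and from 0 through 133 to 1463 CPM. It had reads in 42 and 40 of 46 cells, and the ranges overlapped. Summed levels of 341 and 190 CPM gave a log2 fold of -0.84 (-0.90 to -0.77), or -1.07 without CD34-positive cell 23, which held 17.1% of that gate's reads.

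Fcgr2b, the ITIM-bearing inhibitory IgG receptor that recruits the phosphatase encoded by Inpp5d, came next per kilobase, at 43 and 36 CPM per kb. It ran from 0 through 198 to 1981 CPM in CD34-negative cells and from 0 through 152 to 908 CPM in CD34-positive cells. The highest value belonged to the library labelled CD34-negative cell 10, and the next was 944 CPM. Summed levels were 249 and 208 CPM, a log2 fold of -0.26 (-0.32 to -0.19), or -0.17 without cell 10 and -0.17 without cell 11. In the CD34-positive gate the 208 CPM of Fcgr2b stood above the 190 CPM of Cd200r1, the reverse of their order per kilobase. By reads, the activating Fcgr3 outnumbered the inhibitory Fcgr2b 3.99 to 1 in the gate without CD34 and 3.34 to 1 in the gate with it. Per kilobase of annotated exon, 1736 bases for Fcgr3 and 5790 for Fcgr2b, the ratios were 13.3 and 11.1. Per kilobase Fcgr3 was the higher of the pair in 45 of 46 CD34-negative and 44 of 46 CD34-positive cells. By reads Fcgr3 was the higher in 43 and 40 cells.

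Cd300a, an ITIM receptor for phospholipids exposed on dying cells, had reads in 34 CD34-negative and 38 CD34-positive cells. Values ran from 0 through 60.2 to 986 CPM and from 0 through 25.3 to 790 CPM. Summed levels of 123 and 85.3 CPM gave a log2 fold of -0.53 (-0.63 to -0.43). It was -0.49 without cell 10, -0.24 without CD34-negative cell 21, which held 20.3% of that gate's reads, and -0.82 without CD34-positive cell 20. Cells with reads were thus fewer in the CD34-negative gate while the summed level was higher there.

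Siglecf, a sialic acid-binding ITIM receptor best known from eosinophils, split the cells of both gates. It had no read in 25 CD34-negative and 23 CD34-positive cells, and reached 1099 and 461 CPM in the highest cells. Medians were 0 and 0.578 CPM, and 10 cells of each gate held over 100 CPM. Summed levels of 76.5 and 60.3 CPM gave a log2 fold of -0.34 (-0.46 to -0.22), but CD34-negative cell 5 held 28.4% of that gate's reads, and without it the log2 fold was 0.11. Without CD34-positive cell 19 it was -0.67. The direction for Siglecf therefore rested on 1 cell.

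Cd300lf and Pilra, ITIM receptors of monocytes and neutrophils, were close to undetected. Cd300lf had reads in 4 CD34-negative and 3 CD34-positive cells, at 7.21 and 2.66 CPM over the gates, a log2 fold of -1.16 (-1.56 to -0.76). In the CD34-negative gate cell 29 held 62.2% of its reads and cell 10 held 31.5%, and in the CD34-positive gate cell 39 held 86.3%. Without cell 10 the log2 fold was -0.71, without cell 29 it was -0.05, and without CD34-positive cell 39 it was -2.58. Pilra had 29 reads in the CD34-negative gate, of which 28 were in cell 10, and 1 read in the CD34-positive gate. The ratio of CD34-negative to CD34-positive Pilra levels was 26.0, with an exact counting interval of 4.32 to 1064. Without cell 10 both gates held 1 read, and the log2 fold was 0.0044. With it the Pilra log2 fold depended on the pseudocount, at -0.85 with 1 CPM and -2.86 with 0.1 CPM.

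**Figure D1:**
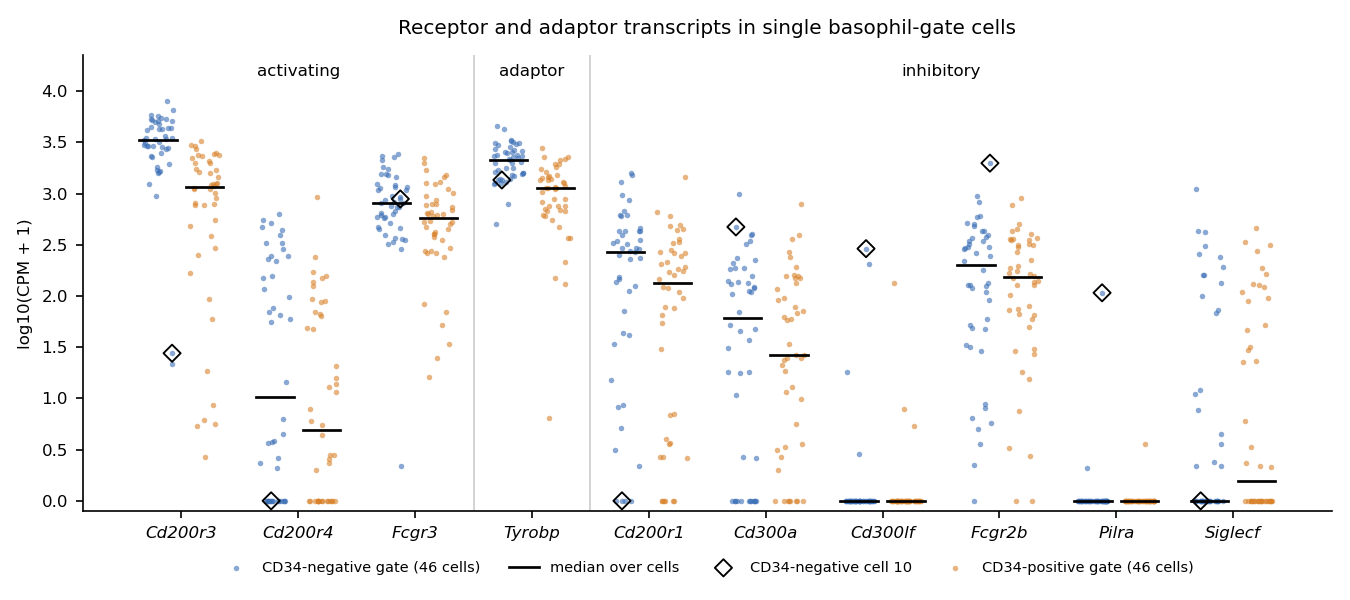
Level of each gene in single cells, as log10 of CPM plus 1, with 46 CD34-negative cells in blue and 46 CD34-positive cells in orange, black bars at the median over cells and an open diamond on CD34-negative cell 10. Cd200r3 had medians of 3357 and 1165 CPM in the 2 gates, and cell 10 held nearly all Pilra reads and no reads of Cd200r1, Cd200r4 or Siglecf.

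Set beside all genes, the summed CPM of the 10 were lower in the CD34-positive gate, though for 6 of them not under ERCC scaling. All 10 had a log2 fold below 0, against 41.1% of the 12460 genes seen in 10 or more kept cells. The 10 were chosen with earlier results of these data known, so shares of all genes set beside them are descriptions, not tests. At or below -1 stood 3 of the 10 (Cd200r3, Cd300lf and Cd200r4), against 10.1% of all genes, and 0 stood at or above 1, against 21.7%. The median of the 10 was -0.85 and that of all genes 0.19. Of the 10 genes, 8 had reads in at least 10 cells, and Cd300lf and Pilra did not, so those 2 are outside the set that gives the shares of all genes. Over the 8 alone, 2 were at or below -1 and the median was -0.68. Without CD34-negative cell 10, 2 of the 10 were at or below -1, against 9.98% of all genes, 9 of the 10 were below 0, against 40.9%, and the median was -0.61. By role, the 3 activating receptors had a median of -1.10 and the 6 inhibitory receptors one of -0.68, or -1.12 and -0.42 without cell 10. The difference between these roles was not tested. Scaling by ERCC reads, which sets levels per spike-in molecule rather than per gene read, moved the median of all genes from 0.19 to 1.04 and the median of the 10 from -0.85 to 0.11. The split of all genes past 1 log2 unit became 51.8% higher and 2.25% lower with CD34, against 21.7% and 10.1% by CPM. Under it Cd200r3 (-0.51), Cd200r4 (-0.15), Cd300lf (-0.39) and Pilra (-0.67) kept values below 0, where 12.4% of all genes were below 0, while Cd200r1, Cd300a, Fcgr2b, Fcgr3, Siglecf and Tyrobp lay above 0. The lower levels of those 6 are thus lower shares of a cell's gene reads. Cd300lf and Pilra rested on few cells, and ERCC values without their richest cells are not given here.

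**Figure D2:**
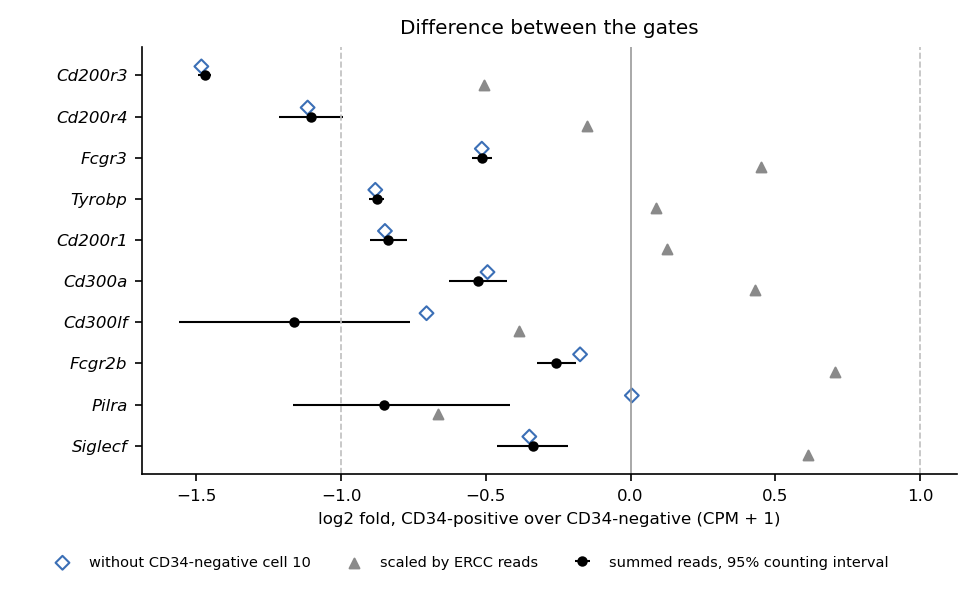
Log2 fold of CPM plus 1, CD34-positive over CD34-negative, for each gene from summed reads (black, with 95% counting interval), without CD34-negative cell 10 (open diamonds) and after scaling by ERCC reads (grey triangles), with dashed lines at -1 and 1. With the pseudocount of 1 CPM Cd200r3 at -1.47 lay lowest from summed reads, Pilra moved to 0.0044 without cell 10, and 6 genes crossed 0 under ERCC scaling.

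The cells of the 2 gates carried similar numbers of the 10 genes. After 200000 gene reads were drawn from each cell, the median number detected was 7 in both gates (95% interval 6 to 7), with ranges of 5 to 9 and 4 to 9. In that drawing Tyrobp was detected in 46 of 46 cells of each gate, and Cd200r3 in 46 CD34-negative and 43 CD34-positive cells. Cd200r4 was detected in 63.0% of CD34-negative cells (exact binomial 95% interval 47.5 to 76.8) and 54.3% of CD34-positive cells (39 to 69.1). For Siglecf these shares were 37% (23.2 to 52.5) and 41.3% (27 to 56.8). Such intervals treat the cells as independent and do not cover differences between mice. Inhibitory and activating receptors were found together in part of the cells. Fcgr2b and Fcgr3 were both detected in 42 of 46 cells of each gate, and Cd200r1 and Cd200r4 together in 25 CD34-negative and 22 CD34-positive cells. Cd300a and Cd200r4 were both detected in 19 cells of each gate, and 1 of the pair alone in 23 and 22 cells. These counts follow how often each gene was detected and were not tested.

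Across the cells of a gate, most pairs of these genes were weakly related. Spearman's rho over the 46 cells of a gate is given as a description, since the cells share a preparation, differ in depth, and have CPM that sum to a fixed total. For the 8 genes with enough cells, rho ran from -0.35 to 0.49 without CD34 (-0.30 to 0.47 when cell 10 was left out) and from -0.23 to 0.54 with it. The highest value in CD34-negative cells was that of Cd200r3 with Cd200r4, 0.49, or 0.47 without cell 10, and in CD34-positive cells this pair stood at 0.28. In CD34-positive cells Cd200r3 stood highest with Cd200r1 (0.54) and with its adaptor Tyrobp (0.51). In CD34-negative cells, where few cells were low in Cd200r3, the same pairs stood at 0.05 and 0.05, or -0.00026 and 0.0072 without cell 10. Whether the gates differ in these relations was not tested.

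**Figure D3:**
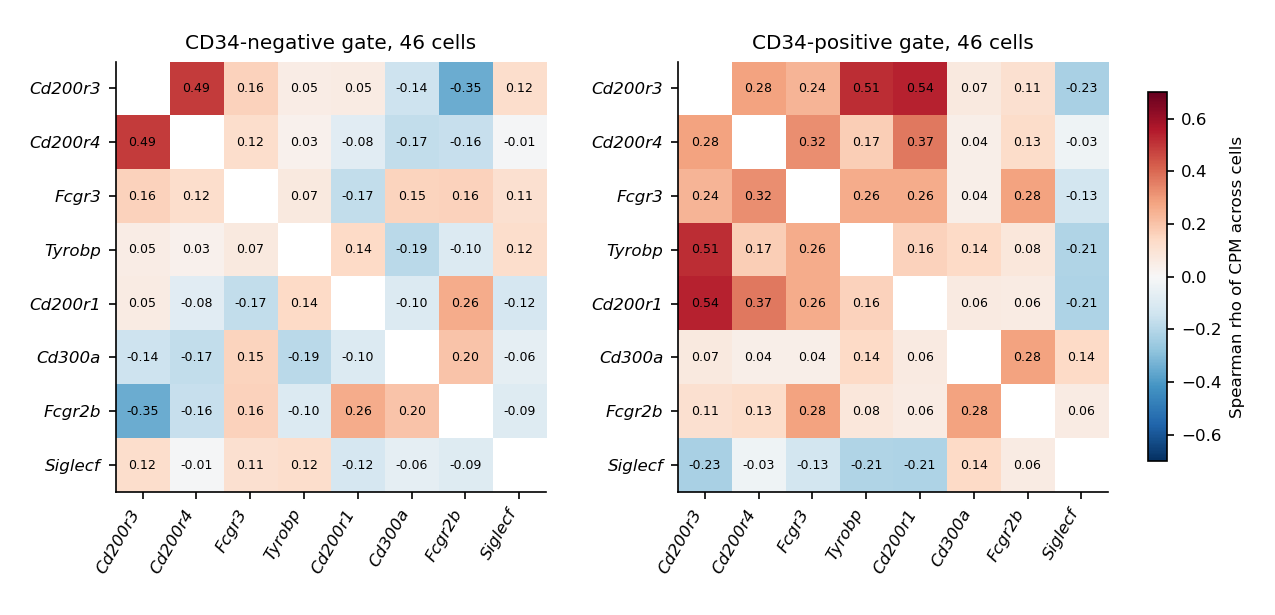
Spearman rho of CPM between 8 of the genes across the 46 cells of each gate, CD34-negative on the left and CD34-positive on the right, with the value printed in each cell and red for positive, blue for negative. Cd200r3 with Cd200r4 reached 0.49 on the left, and Cd200r3 with Cd200r1 reached 0.54 on the right.

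Beyond the receptors, Cd200r3 in CD34-positive cells had its highest and lowest rho among the genes compared as follows. It was 0.71 with Csf2rb, the shared beta chain of the IL-3 receptor, 0.68 with Actb and 0.67 with the chemokine gene Ccl3. With Kit it was -0.61 and with Mpo -0.46. Other basophil genes gave 0.49 (Prss34), 0.40 (Gata2), 0.37 (Il4), 0.36 (Fcer1a), 0.33 (Mcpt8), 0.13 (Cpa3) and 0.10 (Hdc), so the relation varied among them. Tyrobp in these cells had a rho of 0.60 with Fcer1g, 0.50 with Fcer1a and -0.44 with Kit, and of -0.56 with the number of genes detected at a fixed 200000 reads. In CD34-negative cells Tyrobp stood at 0.51 with the chemokine gene Ccl6 and at -0.48 with the number of genes detected, and Fcgr3 stood at -0.50 with Fcer1a. Siglecf in CD34-positive cells had a rho of -0.47 with the basophil protease gene Mcpt8 and -0.42 with Prss34, resting on 23 cells with a Siglecf read. The part of the number of genes per cell in these relations was not tested.

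**Figure D4:**
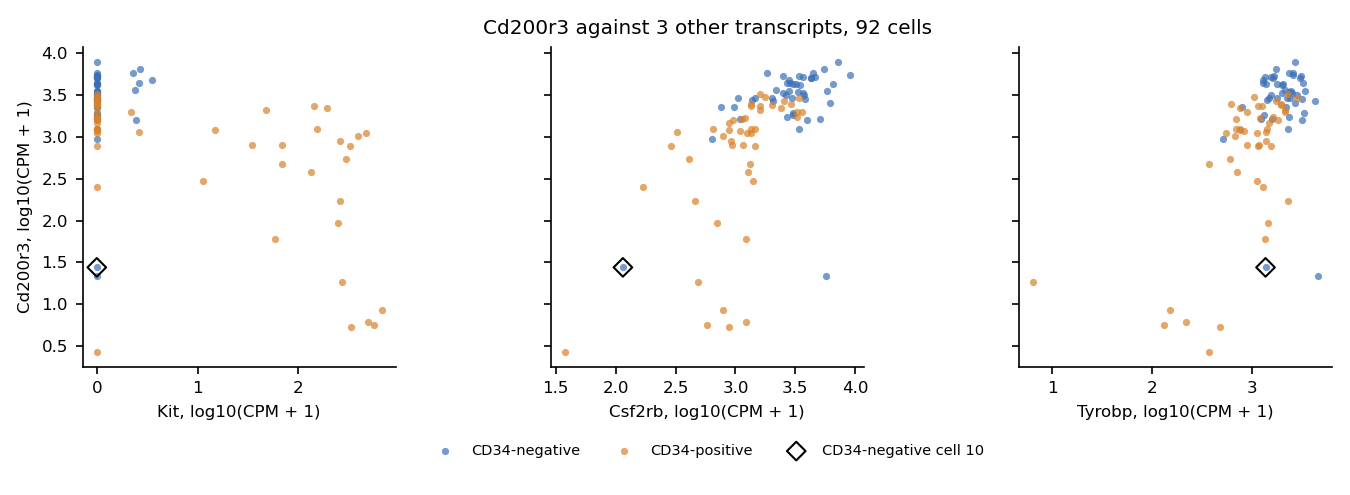
Cd200r3 against Kit, Csf2rb and Tyrobp in single cells, all as log10 of CPM plus 1, CD34-negative cells in blue, CD34-positive cells in orange and CD34-negative cell 10 as an open diamond. In the CD34-positive gate rho was -0.61 with Kit, 0.71 with Csf2rb and 0.51 with Tyrobp, and 6 of the 8 CD34-positive cells under 100 CPM of Cd200r3 held at least 100 CPM of Kit.

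The 3 genes most like each receptor were found by the mean of the 2 within-gate rho values among 7365 genes. For Cd200r3 they included Plek (0.56) and the gene with identifier ENSMUSG00000089672 (0.56), for which the name tables gave no symbol. For Tyrobp they were Tmsb4x (0.59), which encodes an actin-binding peptide, ENSMUSG00000089672 (0.54) and Gm49339 (0.51). For Cd200r4, Sept1 (0.49) was followed by Cd200r3 itself (0.39) and Osbpl3 (0.37). Fcgr3 was most like Arhgdib (0.47), Pgd (0.40) and Limd2 (0.40), and Fcgr2b most like Ly9 (0.43), Gpr146 (0.39) and 4930579G18Rik (0.38). The closest genes were Ccr1 (0.40) for Cd200r1, Otulinl (0.39) for Cd300a and Acot7 (0.41) for Siglecf. The first gene of each receptor stayed among its closest 3 without cell 10, while 7 of the 24 genes did not, Osbpl3, Gpr146 and 4930579G18Rik among them.

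Lists of related receptors and of signalling genes were set beside the 10. These lists too were chosen with earlier results of these data known. Of the 48 related receptors 46 were matched and 15 had reads in at least 10 cells, of which 5 stood at or below -1, 3 at or above 1 and 10 below 0, with a median of -0.67. Among all genes 10.1% stood at or below -1, 21.7% at or above 1 and 41.1% below 0. Under ERCC scaling 5 of these 15 were below 0, against 12.4% of all genes, and the median was 0.26, against 1.04. Lower in the CD34-positive gate were Pirb, an inhibitory receptor for MHC class I (68.7 and 5.36 CPM, log2 fold -3.45), Havcr2 (23.0 and 4.40 CPM, -2.15) and Cd300lb, an activating CD300 relative that uses DAP12 (184 and 49.2 CPM, -1.88). Cd200r2, a further CD200 receptor relative (15.1 and 4.03 CPM, -1.68), and Cd244a (751 and 288 CPM, -1.38) were lower too. These 5 stayed below 0 under ERCC scaling, from -2.57 for Pirb to -0.41 for Cd244a. Pirb, Cd200r2 and Havcr2 had reads in only 24, 20 and 13 kept cells, and the weight of single cells in their folds is not given here. Ceacam1 (16.9 and 67.6 CPM, 1.94), Lair1, an inhibitory collagen receptor (60.8 and 208 CPM, 1.76), and Clec12a, an ITIM lectin (224 and 675 CPM, 1.59), were higher in the CD34-positive gate. Both directions therefore occurred among inhibitory receptors.

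The downstream signalling genes mostly had lower CPM in the CD34-positive gate, where 41.1% of all genes were below 0, 10.1% at or below -1 and 21.7% at or above 1. Under ERCC scaling 5 of 13 ITAM effectors (median 0.08) and 3 of 9 ITIM effectors (median 0.41) were below 0, against 12.4% of all genes and their median of 1.04. Of 14 genes acting after an ITAM, 13 had enough cells, of which 11 were below 0, 5 at or below -1 and 0 at or above 1, with a median of -0.89. Among those at or below -1 were the kinase gene Btk (338 and 127 CPM, -1.41) and the adaptor genes Gab2 (546 and 205 CPM, -1.41), Lcp2 (272 and 123 CPM, -1.14) and Lat2 (565 and 258 CPM, -1.13). Without cell 10 these 4 were at or below -1 and the list's median was -0.65. Syk, the kinase that binds phosphorylated ITAMs, stood at 367 and 197 CPM (-0.89, or 0.07 under ERCC scaling). The list of ITIM effectors held 10 genes of inhibitory signalling, not all of which are recruited by an ITIM. Of these, 9 had enough cells, of which 7 were below 0, 3 at or below -1 and 0 at or above 1. The median was -0.55, or -0.46 without cell 10. These 3 were Pag1 (144 and 29.2 CPM, -2.27), Dok2, the partner of Cd200r1 (106 and 38.3 CPM, -1.44), and Csk, a kinase that restrains Src-family kinases (400.2 and 194 CPM, -1.04). The phosphatase genes Ptpn6 (228 and 144 CPM, -0.65) and Inpp5d (369 and 265 CPM, -0.48) were lower by CPM but stood at 0.31 and 0.49 under ERCC scaling, and Ptpn11 (41.1 and 69.3 CPM, 0.74) was higher. Of 6 listed signalling adaptors, 4 had enough cells and all 4 were below 0, with a median of -0.38 (0.58 under ERCC scaling). One of the 4, Hcst (-0.65), carries no ITAM. The B cell receptor gene Cd79a (14.5 and 3.20 CPM, -1.88) was the 1 gene of the 4 at or below -1. Of 6 ligand genes, 3 had enough cells and none of these was below 0. They were Cd24a, a sialylated surface protein, at 12.4 and 131 CPM (3.31), Cd48 at 164 and 246 CPM (0.58) and Cd47 at 1036 and 1366 CPM (0.40). Cd48 was also counted among the related receptors. Cd200, the gene of the Cd200r1 ligand, had no read in either gate.

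**Figure D5:**
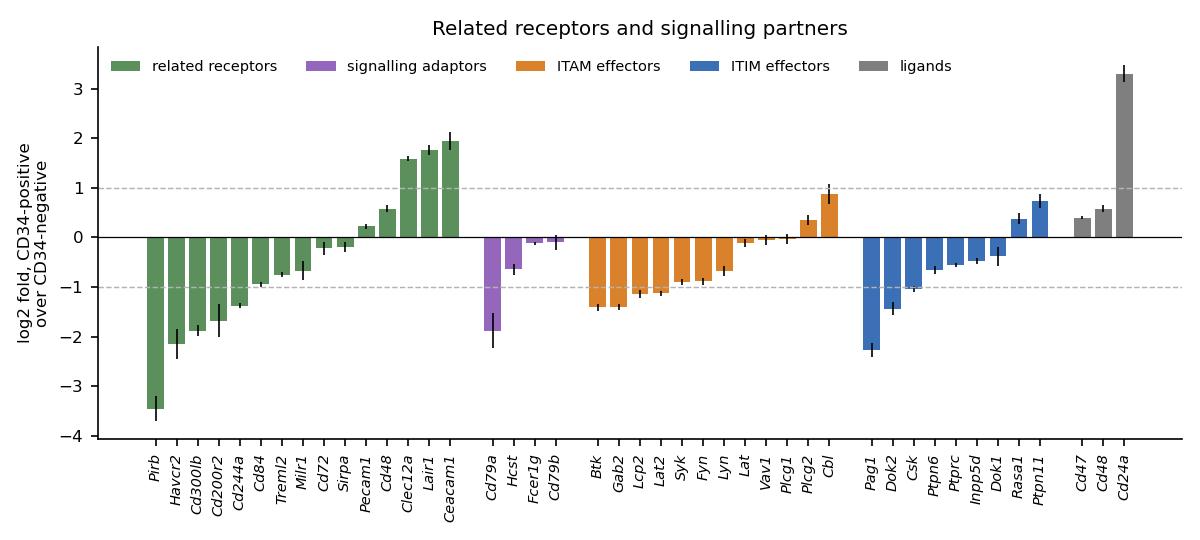
Log2 fold of CPM plus 1, CD34-positive over CD34-negative, for listed related receptors and signalling genes with at least 10 CPM in a gate and reads in at least 10 cells, 1 of them not shown, with 95% counting intervals and dashed lines at -1 and 1. On this CPM scale, though not under ERCC scaling, bars below 0 outnumber those above in the receptor and effector lists, Pirb at -3.45 is the lowest and Cd24a at 3.31 the highest.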

How the data were processed

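Counts of reads per gene for 94 cells were deposited by the authors as 1 table, not normalized. Per the submitters' processing notes, GSNAP 2015-09-29, HTSeq 0.5.3p3 and the mm10 build were used, and the annotation and strand setting are not given in the sources used here. Per the labels' protocols, polyadenylated RNA was amplified over 19 PCR cycles and sequenced from one end for 50 bp. There are no molecular identifiers, so the intervals of sums and folds cover counting error only. Intervals of medians and of shares of cells treat the cells as independent and do not cover differences between mice. Of all reads, 33.0% fell in no feature, 22.9% were not aligned and 3.97% were ERCC, and only gene reads (32.4%) formed library sizes.

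A cell needed 50000 gene reads, 1000 genes, under 20% mitochondrial reads and under 50% ERCC reads. Reads were summed per gate, divided to CPM and compared as log2 folds with a pseudocount of 1 CPM. Fold intervals join exact Poisson 95% bounds of the sums, and medians have order-statistic intervals. With 1 sample per gate no test was run. No clustering or doublet calling was done on these singly sorted cells. Sequence matches are exact, in GENCODE M21 and RefSeq. Symbols matched 45143 of 46078 identifiers. Named are all 10 genes, listed genes with 10 CPM in a gate and reads in 10 kept cells, and the 3 nearest genes of each receptor with reads in 10 cells of each gate. Values of 2 genes that the rule names are not reported here. The members and lists were chosen with earlier results of these data known. Alternatives covered the cell filter, scaling (per-cell means, scran 1.30.0, edgeR 4.0.16 TMM, ERCC), pseudocount and single cells. Python 3.11.15, scipy 1.17.1 and R 4.3.3 were used, and the procedure was tested on simulated data.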

Additional observations from a re-analysis of the deposited data

Results flagged for a closer look

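The 2 libraries left out for low depth still held reads of these genes. CD34-positive cell 3, with 31504 gene reads, held 85 reads of the 10 genes, from 7 of them, or 2698 CPM, and the kept cells of that gate ran from 551 to 10255 CPM. CD34-negative cell 20, with 24565 gene reads, held 25 reads from 5 of the genes, or 1018 CPM, below the lowest kept cell of its gate at 2195 CPM.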

How the results depend on the processing

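The median log2 fold of the 10 genes, -0.85, became 0.11 under ERCC scaling, -1.01 under scran size factors, -0.98 under TMM, -0.50 with a pseudocount of 10 CPM and -0.35 when each gene's richest cell was left out. Without CD34-negative cell 10, an alternative chosen after seeing the data, it was -0.61. Leaving out each cell in turn gave -0.88 to -0.61, and 2 to 4 genes at or below -1. The 3 genes at or below -1 became 5 with scran and TMM, 0 with ERCC scaling and 1 with a pseudocount of 10 CPM. The share of all genes at or below -1, 10.1%, was 13.6%, 14%, 2.25% and 5.75% under these 4 settings. ERCC scaling reversed Cd200r1 (0.13), Cd300a (0.43), Fcgr2b (0.71), Fcgr3 (0.45), Siglecf (0.61) and Tyrobp (0.088). Siglecf was also reversed without its richest cell, CD34-negative cell 5 (0.11), and over cells numbered 7 to 42 (0.42), and Pilra without cell 10 (0.0044). Leaving out each cell in turn gave -0.67 to 0.11 for Siglecf and -0.90 to 0.0044 for Pilra. The cause of these reversals was not tested. Of 140 values of single genes under alternatives, 71 moved by less than their counting interval, 57 moved by more without a change of sign and 12 were reversed. The same left-out cell can enter this tally under more than 1 alternative. Cd200r3 and Cd200r4 stayed below 0 under all alternatives, from -1.68 to -0.51 and from -1.70 to -0.15. Cd300lf, with reads in few cells, did so too, from -2.58 to -0.05. No gene reached 1 under any. The median number of genes detected per cell differed by at most 1 between the gates under each alternative. No paired analysis was possible because the cell numbers in the titles only name cells, and none of the results rests on a test.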
